A study of Mus musculus with 8 samples.

Results

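Plasmacytoid and conventional dendritic cells of the mouse periosteum, the fibrous sheath on the outer surface of bone, were described in single-cell RNA profiles from 2 diets. Counts were in UMIs (unique molecular identifiers, each standing for 1 captured RNA molecule), and a barcode was kept where its gene number lay above 500 and below 8000 and mitochondrial transcripts gave less than 20% of its UMIs. A kept cell was taken as plasmacytoid with at least 3 Siglech UMIs. It was taken as conventional with at least 2 Cd209a UMIs or at least 2 UMIs of Clec9a and Xcr1 together. Cells with 5 or more C1qa, C1qb and C1qc UMIs, 3 or more Cd79a UMIs, any Cd3e UMI, or 2% or more of their UMIs in S100a8 and S100a9 were left out. The rule took 165 of 12253 kept cells, of which 63 were plasmacytoid only, 78 were conventional only and 24 passed both criteria. The last are given apart as double-positive cells.

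The cells came from male C57BL/6J mice, 16 weeks old, fed either normal diet chow (ND) or high fat diet chow (HFD), with no allele or other agent in either group. Periosteum of the left femurs and tibias was digested with collagenase I and dispase II and loaded on a droplet platform. The labels list 4 samples per diet, but the counts form 1 matrix per diet, so no cell could be tied to a mouse and every diet difference below is a difference between 2 libraries with no replicate check and no test. The ND library held 6314 barcodes and 48558889 UMIs, of which 6029 cells were kept (median 4610 UMIs). The HFD library held 6636 barcodes and 49940976 UMIs, of which 6224 cells were kept (median 4823.5 UMIs). The libraries shared 15 barcodes, none of them a member.

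Dendritic cells sample their surroundings and present antigen to T cells. Plasmacytoid cells sense viral nucleic acid in endosomes through Toll-like receptors and are known for rapid secretion of type I interferon, and they share with B cells several genes of the lymphoid programme. Conventional cells load peptides on MHC class II and fall into a type 1 branch (Clec9a, Xcr1), known for cross-presentation to cytotoxic T cells, and a type 2 branch (Cd209a, Mgl2), known for priming helper T cells. Monocytes can acquire Cd209a and MHC class II when they enter tissue, so the boundary between type 2 cells and monocyte-derived cells is not set by any single gene.

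The plasmacytoid criterion fell in a sparse stretch of the Siglech distribution. Siglech, which encodes an endocytic lectin of plasmacytoid cells (mm10, GENCODE M21, chr7:55768178-55778925, plus strand), had 2 UMIs in 4 ND and 4 HFD cells that passed the other filters, 3 UMIs in 3 and 3 cells, and 7 or more in 28 and 45 cells. The Cd209a criterion cut through a continuous tail. Cd209a, a C-type lectin of the DC-SIGN family (chr8:3743397-3748984, minus strand), had 1 UMI in 11 ND and 11 HFD such cells, 2 UMIs in 5 and 13 cells, and 7 or more in 15 and 23 cells. For Clec9a, a receptor for dead-cell actin (chr6:129408862-129424763, plus strand), and Xcr1, a chemokine receptor (chr9:123852315-123862029, minus strand), 1 summed UMI was found in 24 ND and 20 HFD cells and 2 in only 2 and 7 cells. The exclusion genes removed 4 ND and 2 HFD cells that passed the Siglech criterion and 9 and 9 that passed the conventional one.

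Plasmacytoid cells made up 24 of 6029 ND cells (0.398%, Clopper-Pearson 95% interval 0.255 to 0.592) and 39 of 6224 HFD cells (0.627%, 0.446 to 0.856). Their share was 1.57 times as high in the HFD library, with an interval of 0.923 to 2.74 that held no difference. Conventional cells made up 33 ND cells (0.547%, 0.377 to 0.768) and 45 HFD cells (0.723%, 0.528 to 0.966), a ratio of 1.32 (0.824 to 2.14). With a criterion of 1 UMI these shares were 0.912% and 0.948%. Double-positive cells numbered 8 (0.133%, 0.0573 to 0.261) and 16 (0.257%, 0.147 to 0.417), a ratio of 1.94 (0.782 to 5.23). Each of these shares had intervals that overlapped between libraries, and only over all members together did the ratio's interval lie above 1 (1.49, 1.08 to 2.07). All intervals here cover counting error only and not the spread between mice, and a share of cells is relative to every other cell released from the tissue.

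**Figure D1:**
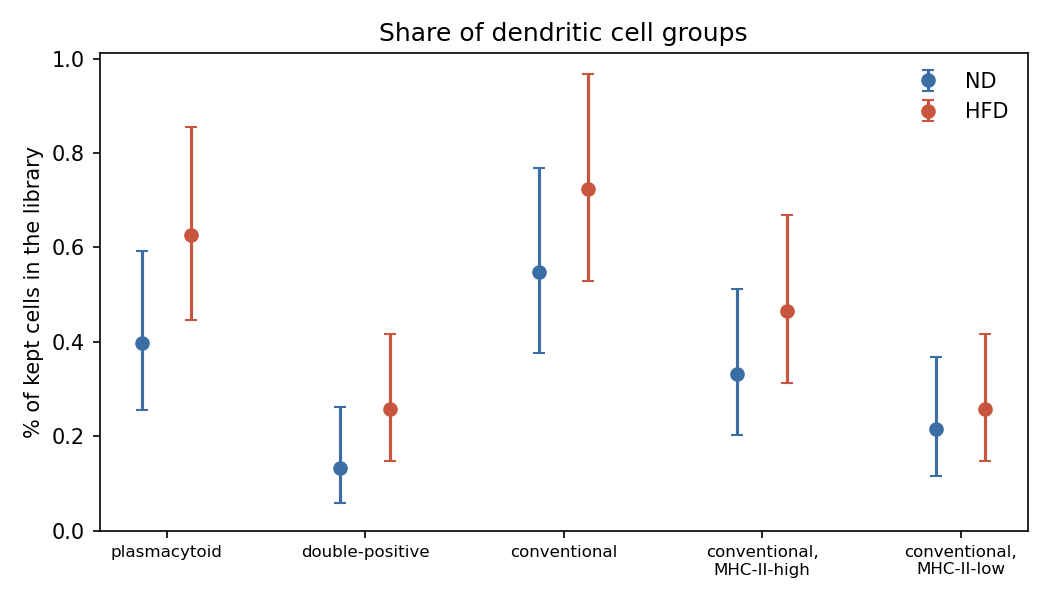
Share of kept cells (percent, y axis) in each population of the rule, ND beside HFD, with points for the share and bars for the Clopper-Pearson 95% interval (counting error only, 1 library per diet). Every HFD point lies above its ND point, for example 0.627% against 0.398% for plasmacytoid cells, and every pair of intervals overlaps.

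The plasmacytoid cells carried markers that the rule had not used. They had a median of 9630.5 UMIs in ND (1486 to 21634) and 9968 in HFD (5271 to 23931). This was above B cells (3969 and 3865.5) and neutrophils (4554 and 4745). It was below conventional cells (11491 and 13395) and monocytes (12655 and 11973). Siglech, which chose them, ranged from 3 to 39 UMIs per cell around a median of 17 in both libraries. Cox6a2, a subunit of cytochrome c oxidase otherwise known from muscle (chr7:128205435-128206387, minus strand), was found in 22 of 24 ND and 36 of 39 HFD cells, with a median of 19.5 UMIs (0 to 63) and 23 UMIs (0 to 82). After every cell was thinned to 1000 UMIs, Cox6a2 remained in 79.2% and 79.5% of plasmacytoid cells, against 1.67% and 1.88% of B cells and none of the conventional cells. Most cells chosen by Siglech thus carried Cox6a2, and Cox6a2 was at 0 UMIs in the conventional cells of both libraries.

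Surface and homing genes of the plasmacytoid type were present at similar levels in both libraries. Ly6d, a surface protein shared with early B cells, had a median of 36 UMIs per ND cell (1 to 413) and 26 per HFD cell (0 to 167), and its summed level was 6526 and 4661 CPM (counts per 1000000 UMIs of the population in its library). Ccr9, a receptor that guides cells to the gut and thymus, had a median of 5.5 UMIs (0 to 24) in ND and 4 (0 to 33) in HFD and was found in 22 of 24 and 29 of 39 cells. Bst2, the tetherin recognised by plasmacytoid antibodies in the mouse, ranged from 0 to 84 (median 38.5) and from 2 to 73 (median 45). The ranges of the 3 genes overlapped between libraries, although the highest ND cell for Ly6d lay above every HFD cell. Klk1, a serine protease, was found in 10 of 24 and 18 of 39 cells, and so marked fewer cells than Cox6a2 did.

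Transcription factors of the lineage were present in both libraries. Tcf4, the E protein that maintains plasmacytoid identity, stood at 1017 CPM in ND and 1087 in HFD. Irf8, needed for plasmacytoid and type 1 conventional cells alike, stood at 2143 and 1643, Runx2, which aids their exit from marrow, at 472 and 393, and Spib, an Ets factor also high in B cells, at 191 and 223. Bcl11a, upstream of the lineage, stood at 264 and 196 in plasmacytoid cells and at 49.9 and 33.2 in conventional cells. These levels are not scaled to transcript length, so they compare a gene between cells and not one gene with another. Flt3, the receptor whose ligand drives dendritic cell development, stood at 122 and 73.4.

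Because Siglech and Cd209a chose the arms, differences between them are a description. Of 4026 genes, 133 (3.3%) were at least 4-fold higher in plasmacytoid than in conventional cells in both libraries, and 165 (4.1%) were at least 4-fold lower. After Cox6a2, the highest folds over conventional cells among genes that reached 50 UMIs, with the libraries pooled, were those of Gm21762, Siglech, Sla2, Klk1, Ly6d, Mzb1, Iglc3, Ccr9 and Hs3st1. Sla2 encodes an adaptor that dampens antigen receptor signalling and Mzb1 an endoplasmic reticulum protein of antibody-secreting cells. With both libraries added up, the highest on the conventional side were Ccl17 (no UMI in ND, and 434 of 503 HFD UMIs in 1 cell), Bcl2a1b, Mucl1, Il1b, Cxcl16, Ckb, Clec4b1, Eps8, Wnt11 and Clec4a2.

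**Figure D2:**
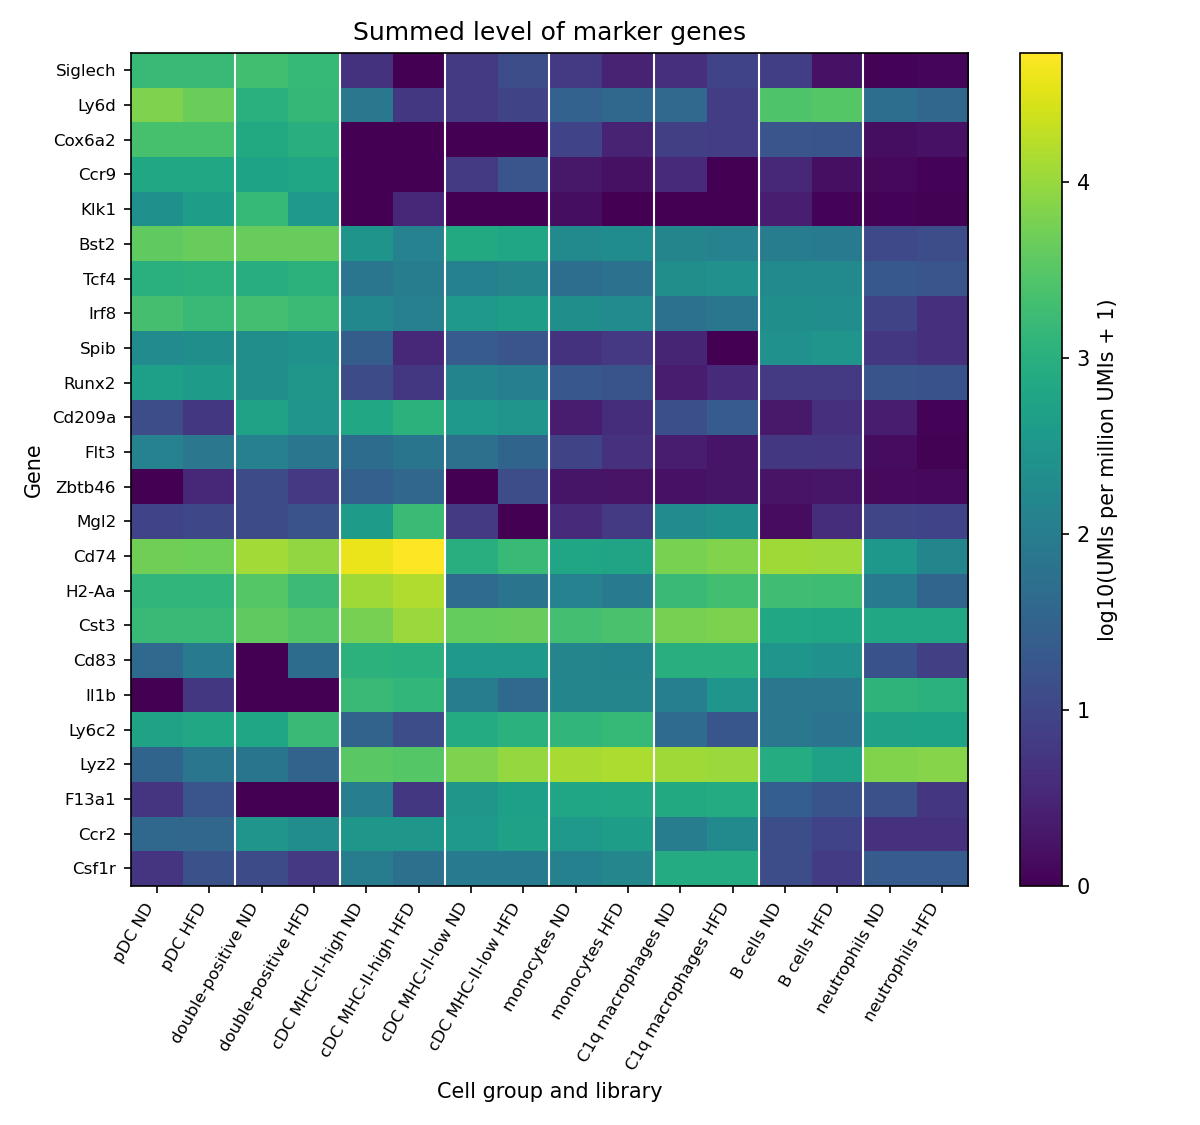
Level of marker genes (log10 of CPM plus 1, colour scale) in the populations of the rule and in monocytes, C1q macrophages, B cells and neutrophils, for ND and HFD. Cox6a2, Klk1 and Ccr9 are high in the plasmacytoid and double-positive columns, and Ly6c2 is low in the MHC-II-high conventional, C1q macrophage and B cell columns.

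The genes for sensing and for interferon were unequally represented. Unc93b1, the chaperone that carries endosomal Toll-like receptors, stood at 626 CPM in ND and 623 in HFD plasmacytoid cells. Tlr7, the receptor for single-stranded RNA, had 12 and 15 UMIs in all, and Tlr9, the receptor for unmethylated DNA, 1 and 3. Irf7, the factor that drives interferon transcription, stood at 102 and 180. None of 21 interferon ligand genes had a UMI in plasmacytoid cells of either library. A count of 0 allows up to 12.2 CPM for a gene in ND and 7.10 in HFD (3 counts over the group), so only higher levels can be set aside.

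Secretory genes were higher in plasmacytoid than in conventional cells as sums in both libraries, and the sums of lysosomal genes lay closer together. The 25 endoplasmic reticulum and secretory genes summed to 8612 and 8420 CPM in plasmacytoid cells and 5675 and 4970 in conventional cells. The 20 lysosomal genes summed to 10271 and 11225 against 9573 and 9800, and Ctsb, a cathepsin, stood at 1468 and 1453 against 488 and 395. In ND the gap in Ctsb was larger than the gap in the lysosomal sum. The MHC-II-low conventional cells described further on had lysosomal sums of 10331 and 10693. MHC class II genes summed to 8116 and 7781 in plasmacytoid cells, far below the MHC-II-high conventional cells described further on. Costimulatory genes were also low, at 281 and 407 against 1837 and 1559.

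The double-positive cells resembled the plasmacytoid arm more than the conventional arm in plasmacytoid identity genes. These 32 genes summed to 17235 CPM in ND and 16163 in HFD double-positive cells, against 22279 and 20549 in plasmacytoid and 2161 and 1808 in conventional cells. Cox6a2 was found in 6 of 8 and 13 of 16 of them and Ly6d in 5 of 8 and 14 of 16. Their Siglech counts had medians of 20 and 12.5 UMIs. Their Cd209a counts were lower, from 2 to 15 (median 4.5) in ND and from 0 to 8 (median 2.5) in HFD, where 5 of the 16 passed by Clec9a and Xcr1.

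Some other genes of the double-positive cells lay between the arms and others above both. Their MHC class II genes summed to 19147 and 13485 CPM, above the plasmacytoid and below the MHC-II-high conventional level. Ly6c2, an antigen of inflammatory monocytes that some plasmacytoid cells also carry, was found in 8 of 8 and 16 of 16, against 20 of 24 and 35 of 39 plasmacytoid and 14 of 33 and 19 of 45 conventional cells. Immediate-early genes summed to 44916 and 38485 CPM, above both arms (27952 and 14347, 29972 and 22313), as did lysosomal genes at 13622 and 12765. Their median depths of 9639 and 11298.5 UMIs were close to those of both arms, and 2 of the HFD cells were among the 5% of cells with the highest doublet scores in their library. 1 of these HFD cells held 606 mesenchymal UMIs, 529 of them Dcn, a matrix proteoglycan of fibroblasts. Whether any of the 24 were 2 cells in 1 droplet was not tested further.

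The conventional arm held 2 groups of cells that did not overlap in H2-Aa, an MHC class II alpha chain (chr17:34282744-34287823, minus strand). Per 10000 UMIs, the highest cell below the gap had 3.75 H2-Aa UMIs and the lowest above it had 20.2, and no cell lay within 2-fold of the dividing value of 10, which was set after the counts were seen. MHC-II-high cells were 20 of 33 in ND (60.6%, 42.1 to 77.1) and 29 of 45 in HFD (64.4%, 48.8 to 78.1). As shares of all kept cells these were 0.332% and 0.466%, a ratio of 1.41 (0.768 to 2.62). MHC-II-low cells were 13 (0.216%) and 16 (0.257%), a ratio of 1.19.

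Genes other than H2-Aa differed between the groups in both libraries. Ly6c2 was found in 2 of 20 ND and 3 of 29 HFD MHC-II-high cells but in 12 of 13 and 16 of 16 MHC-II-low cells. F13a1, a coagulation factor subunit of classical monocytes, was found in 6 of 20 and 2 of 29 high cells and in 9 of 13 and 13 of 16 low cells. Ly6c2 and F13a1 were thus mostly in the low cells. Other monocyte markers were in both groups. Csf1r was in 13 of 20 and 13 of 29 high cells and in 9 of 13 and 12 of 16 low cells. Thinned to 1000 UMIs, Ms4a6c was in 45% and 31.03% of high cells and 53.85% and 68.75% of low cells. F13a1, likewise thinned, was in 46.02% and 53% of C1q macrophages and 43.45% and 44.73% of monocytes. After thinning to 1000 UMIs, Ly6c2 was found in 46.2% and 50% of low cells, in no high cell, and in 67.6% and 71.6% of the cells called monocytes, which Ly6c2 itself had chosen. Ccr2, the receptor that draws monocytes into tissue, did not divide the groups, with 17 of 20 and 23 of 29 high cells and 13 of 13 and 16 of 16 low cells.

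Zbtb46 and Mgl2 were mostly in the high cells, while Flt3 and Clec10a were in both groups. Zbtb46, a transcription factor restricted to conventional dendritic cells among myeloid cells, was found in 5 of 20 and 10 of 29 high cells and in 0 of 13 and 3 of 16 low cells. Mgl2, a galactose-binding lectin of type 2 cells (chr11:70130329-70137550, plus strand), was found in 10 of 20 and 19 of 29 high cells and in 1 of 13 and 0 of 16 low cells. Flt3 did not divide them, at 8 of 20 and 16 of 29 against 7 of 13 and 4 of 16, nor did Clec10a, a galactose-type lectin of type 2 cells, at 11 of 20 and 13 of 29 against 7 of 13 and 6 of 16. MHC class II made the groups and so cannot check the label conventional, and of the other markers Zbtb46 was found in a minority of the high cells. The low cells are called here only by the rule. Lyz2, lysozyme, stood at 6617 and 9537 CPM in the low cells against 3391 and 3109 in the high cells, yet it was found in 10 of 13 and 15 of 16 low cells and in 20 of 20 and 27 of 29 high cells. The low cells also differed among themselves, since 1 ND and 2 HFD cells that passed by Clec9a had no F13a1, at most 1 Lyz2 UMI, and 51, 42 and 41 Bst2 UMIs. In the same order these cells held 1, 2 and 1 Siglech UMIs, below the plasmacytoid criterion, and 12, 16 and 26 Irf8 UMIs.

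**Figure D3:**
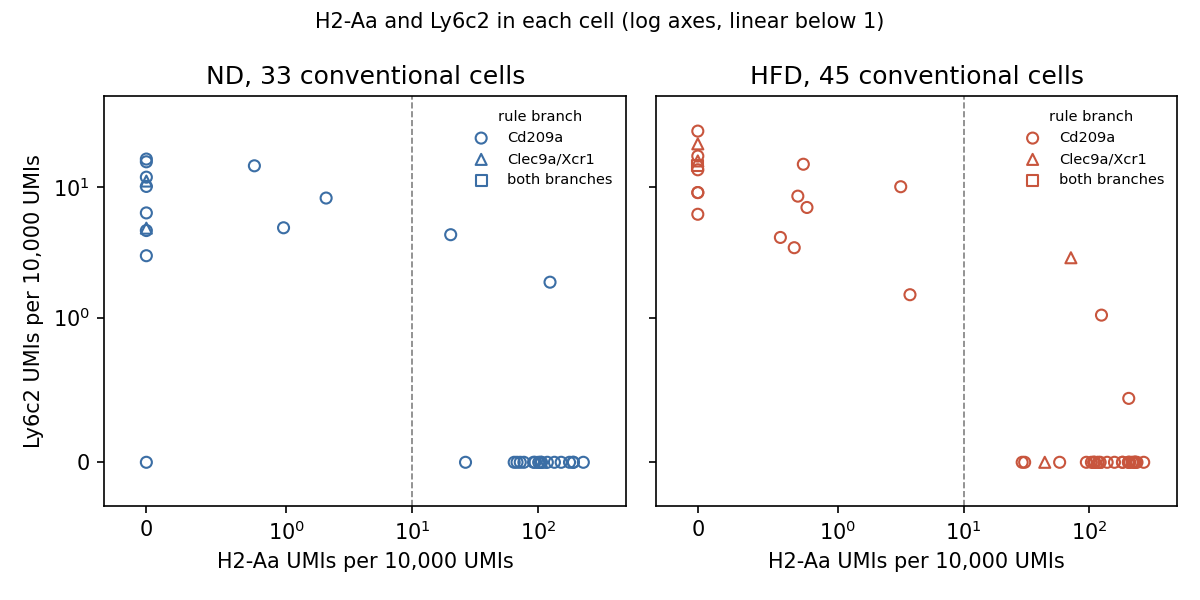
H2-Aa against Ly6c2, each in UMIs per 10000 UMIs of the cell on log axes that are linear below 1, for every conventional cell of the rule in ND and HFD (points, 1 per cell, with a symbol for the branch of the rule and a dashed line at 10). The cells form 2 groups with a gap in H2-Aa between 3.75 and 20.2, and Ly6c2 is found in 12 of 13 and 16 of 16 cells of the lower group.

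The Clec9a and Xcr1 branch was small. It held 3 ND and 5 HFD cells, and 1 further HFD cell passed both branches, against 30 and 39 in the Cd209a branch. Of the branch, 2 cells in each library were MHC-II-low, with Ly6c2 and no H2-Aa. In each library 1 of these also held Siglech (1 UMI in ND and 2 in HFD). The type 1 genes were most complete in 1 cell of each library. The ND cell (16910 UMIs) held 2 Clec9a, 2 Xcr1, 36 Irf8, 17 Naaa, 8 Ifi205 and 4 Batf3 UMIs, where Batf3 is the factor that type 1 cells require. The HFD cell (18429 UMIs) held 4 Clec9a, 1 Xcr1, 11 Irf8, 5 Naaa, 6 Ifi205 and 3 Batf3 UMIs. Another HFD cell with 2 Xcr1 UMIs (13142 UMIs) held 21 UMIs of Ccr7, the receptor for migration to lymph nodes, 57 of Fscn1, an actin-bundling protein of mature dendrites, 20 of Ccl22 and 99 of Ccl5. The ND cell and the Ccr7-bearing HFD cell were among the 5% of cells with the highest doublet scores in their libraries. Type 1 cells were too few for a comparison between diets.

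As sums, MHC class II genes were higher in the MHC-II-high cells than in every other population compared. Against the low cells this difference followed from the H2-Aa split. Cd74, the invariant chain, ranged from 103 to 851 UMIs per 10000 (median 363) in ND and from 60.9 to 1058 (median 565) in HFD. H2-Aa, which defined the group, ranged from 20.2 to 229 (median 106) and from 29.2 to 270 (median 138). The HFD medians were higher and the ranges overlapped over most of their length. As sums, Cd74 stood at 40061 and 54014 CPM, H2-Ab1 at 7961 and 10416 and H2-Eb1 at 7575 and 10957, and the whole MHC class II list at 68934 and 92462 against 1612 and 2387 in the low cells and 16306 and 15527 in B cells. Cst3, cystatin C, an inhibitor of lysosomal proteases that conventional cells express strongly, stood at 5777 and 10437.

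Costimulatory and chemokine genes were also measured in the MHC-II-high cells. Cd83, which stabilises surface MHC class II, was found in 19 of 20 and 27 of 29 of them, at 1086 and 1028 CPM. Cd86, a costimulatory ligand of CD28, stood at 109 and 81.1. Il1b, the inflammasome-dependent cytokine, stood at 1600 and 1345, and Cxcl16, the ligand that retains CXCR6-bearing T cells, at 199 and 310. None of these 4 genes was 2-fold apart between diets. Ccl17, a chemokine for CCR4-bearing T cells, had 0 UMIs in ND and 503 in 8 HFD cells, of which 434 were in 1 cell. The summed HFD level of Ccl17 in the conventional arm was 111 times a floor of 3 counts over the ND group, and 15.9 times without that cell. That floor treats UMIs as independent, so with UMIs gathered in few cells neither value bounds a diet difference. By cells, Ccl17 was found in 0 of 20 ND high cells (0 to 15%) and 8 of 29 HFD high cells (27.6%, 12.7 to 47.2%). These intervals overlap.

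Diet comparisons in plasmacytoid cells covered the 4132 genes that reached 20 UMIs when the libraries were added up. The log2 ratio of HFD over ND had a median of 0.05, with 2256 genes above 0 and 1876 below. At least 2-fold higher in HFD were 155 genes (3.75%), and 126 (3.05%) were at least 2-fold lower. The 32 plasmacytoid identity genes were level between diets: 30 could be compared, 14 were higher and 16 lower, none by 2-fold, with a median log2 ratio of -0.01. Several of the largest ratios were of stress and signalling genes that were lower in HFD.

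Immediate-early and heat shock genes were mostly lower in HFD plasmacytoid cells. Of 32 such genes compared, 2 were higher and 30 lower in HFD, 19 of them by at least 2-fold against a background of 3.05%, with a median log2 ratio of -1.18. Jun, an AP-1 subunit, was found in 19 of 24 ND and 17 of 39 HFD cells, with medians of 4.21 and 0 UMIs per 10000. Its log2 ratio was -2.04 (-2.25 to -1.83), or -1.67 without 1 ND cell. Hspa1a, an inducible chaperone, was found in 13 of 24 and 3 of 39 cells, with a log2 ratio of -2.07, or -1.43 without 1 ND cell. Gem, a small GTPase induced by activation, had 53 and 9 UMIs (-3.27). Dnajb1, a chaperone partner of Hspa1a, had 101 and 49 (-1.82, or -1.14 without 1 ND cell). Id3, an inhibitor of E proteins such as Tcf4, was found in 10 of 24 and 24 of 39 cells, so that its ratio of -1.76 (-1.13 without 1 ND cell) came from higher counts in fewer ND cells, up to 87 in 1 cell against 20 in HFD.

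The same list was also lower in HFD in B cells, monocytes and neutrophils, hardly in C1q macrophages, and not in MHC-II-low conventional cells (19322 and 22908 CPM). It summed to 27952 and 14347 CPM in plasmacytoid cells, 31653 and 20725 in B cells, 27595 and 15467 in monocytes, 16694 and 10353 in neutrophils and 27735 and 26778 in C1q macrophages. These genes are known to be induced by tissue digestion as well as by signals in the animal, and with 1 library per diet the handling of the tissue and the diet cannot be told apart.

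Genes higher in HFD plasmacytoid cells had modest counts. B4galnt1, a ganglioside synthase, had 5 UMIs in 5 of 24 ND cells and 45 in 27 of 39 HFD cells, a log2 ratio of 2.27. Ly6a, Sca-1, had 13 and 88 (1.93), Glcci1, a glucocorticoid-induced transcript, 8 and 46 (1.67), and Fabp5, a fatty acid carrier, 10 and 53 (1.57). Without the cell with the most UMIs these ratios were 2.21, 1.51, 1.54 and 1.14. Igkc, the kappa light chain, had 18 and 119 (1.91) but a log2 ratio of 0.70 without 1 HFD cell. Of the genes lower in HFD, Nfkbid, an atypical inhibitor of NF-kB, went from -2.47 to -0.49 without 1 cell that held 33 of its UMIs, and Cited2 from -1.87 to -0.84.

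Other gene lists of plasmacytoid cells had smaller medians than the immediate-early list. Over all genes compared, 2256 were higher and 1876 lower in HFD. The background was 3.75% past 2-fold higher and 3.05% past 2-fold lower. Of 11 interferon-stimulated genes compared, 6 were higher and 5 lower, 1 of them past 2-fold, with a median log2 ratio of 0.16. Endoplasmic reticulum genes were 11 higher and 12 lower (median -0.01), nucleic acid sensing genes 5 and 5 (0.09) and oxidative phosphorylation genes 14 and 8 (0.09). Lysosomal genes were 14 higher and 6 lower, with a median of 0.19, and 1 was past 2-fold higher. Proliferation genes were 19 higher and 4 lower, 2 past 2-fold higher, with a median of 0.36. The median was 0.34 with cells weighted equally and 0.58 without the 5% of cells with the highest doublet scores. Proliferation UMIs per cell, not scaled to depth, had medians of 9.5 and 9 and reached 359 and 343. Scaled to the UMIs of the cell, the median was higher in HFD than in ND. High counts were not confined to 1 cell, with 318 and 154 in further ND cells and 340 and 303 in further HFD cells. The ND cell with 318 was among the 5% with the highest doublet scores in its library. Lipid genes were 10 higher and 4 lower, 3 past 2-fold higher against a background of 3.75% (Fabp5, Plin2 and Apoe), with a median of 0.38. Cytokine and chemokine genes summed to 2334 and 1169 CPM, 4 of the 7 compared were higher and 3 lower, with a median of 0.41, or -0.61 over genes with at least 50 UMIs. The 3 lower genes were past 2-fold against 3.05%, and without the ND cell with the most UMIs Ccl4 went from -1.62 to -1.13, Ccl3 from -1.76 to -0.99 and Tnf from -1.41 to -0.26. Cxcl2 was past 2-fold higher, with 18 of 20 HFD UMIs in 1 cell. All 6 chemokine receptors compared were lower in HFD, 1 by 2-fold against 3.05%, with a median of -0.34.

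In the conventional arm 5019 genes were compared, with a median log2 ratio of -0.03, and 198 (3.95%) were at least 2-fold higher and 174 (3.47%) at least 2-fold lower in HFD. Of the 5019 genes, 2364 were above 0 and 2655 below. In the MHC-II-high cells alone 3426 genes were compared, 236 (6.89%) and 185 (5.4%) past 2-fold. There 1670 genes were above 0 and 1756 below. The lectin Mgl2 had 103 UMIs in the ND and 706 in the HFD arm, a log2 ratio of 2.18 (1.89 to 2.50) and 2.05 without the cell with the most. Within MHC-II-high cells Mgl2 had a median of 0.449 UMIs per 10000 in ND (0 to 23.4) and 12.8 in HFD (0 to 78.5), at a summed 397 and 1683 CPM. More HFD cells carried it at equal depth, since after thinning it was found in 30% of ND and 62.1% of HFD high cells, against 11.5% and 10% of C1q macrophages and 0.209% and 0.126% of neutrophils.

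Mt1 and Cd81 showed the same direction in the high cells. Mt1, a metallothionein that binds zinc, ranged from 0 to 32.3 UMIs per 10000 (median 1.38) in ND and from 0 to 127 (median 2.88) in HFD, and its log2 ratio in the arm was 2.51, or 2.16 without 1 cell. Mt1 stood at 250 and 209 CPM in monocytes and at 1384 and 1512 in C1q macrophages. Cd81, a tetraspanin, was found in 4 of 20 and 18 of 29 high cells, with a ratio of 2.40 in the arm. Tppp3, a tubulin-binding protein, had 22 and 124 UMIs in the arm (1.88), and Slamf9, a SLAM-family receptor, 15 and 81 (1.80). Mt1, Cd81 and Tppp3 were each at 0 in some cells of both libraries.

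**Figure D4:**
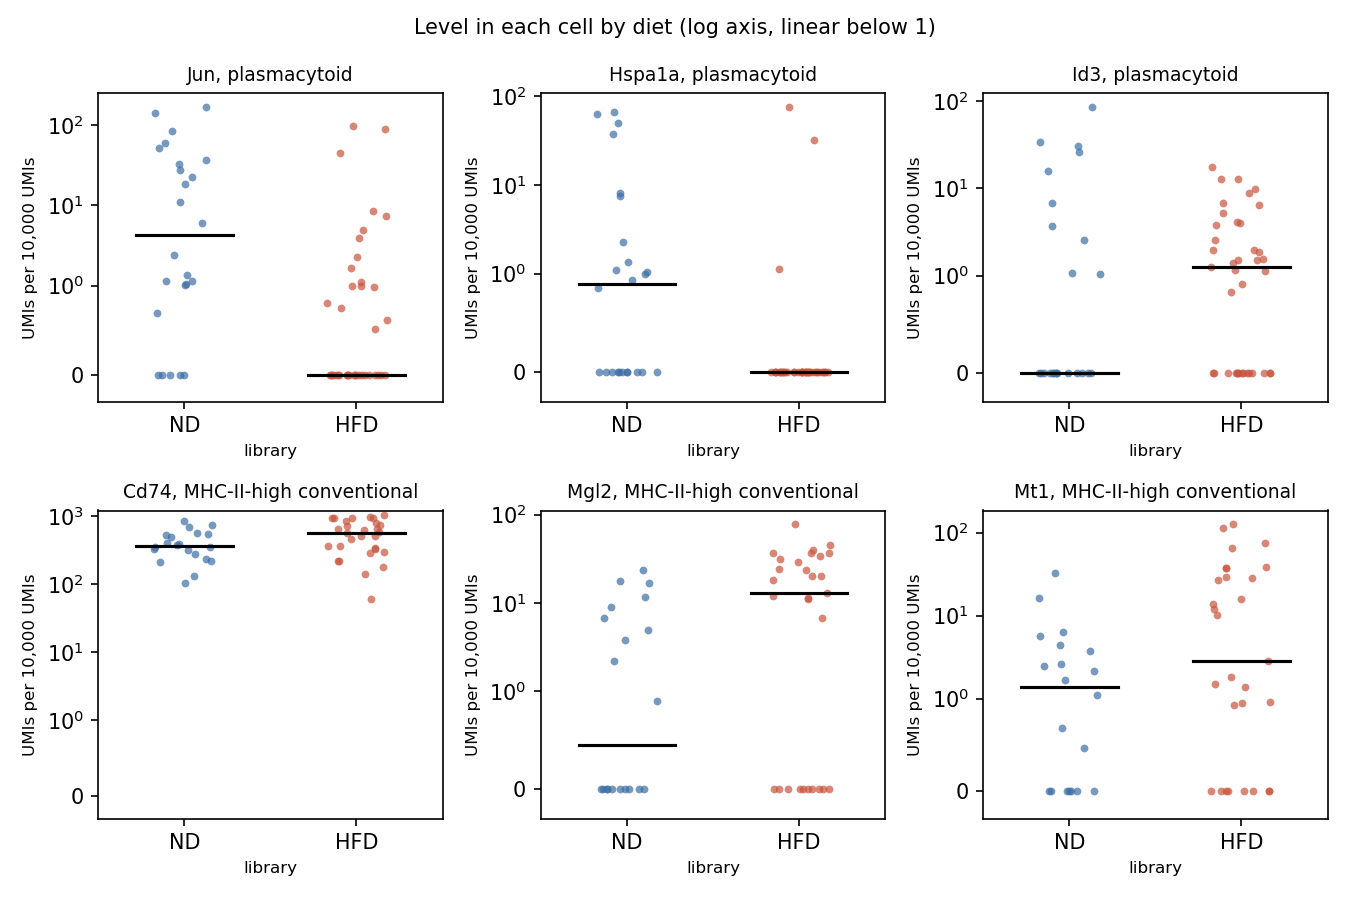
Per-cell levels (UMIs per 10000 UMIs of the cell, log axis that is linear below 1) of Jun, Hspa1a and Id3 in plasmacytoid and Cd74, Mgl2 and Mt1 in MHC-II-high conventional cells, ND beside HFD, 1 point per cell with a bar at the median. In MHC-II-high cells the Mgl2 median is 0.449 in ND and 12.8 in HFD with ranges that overlap, and in plasmacytoid cells the Jun median is 4.21 in ND and 0 in HFD.

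Several large ratios in the conventional arm rested on a single cell. Dcn had 5 and 237 UMIs, 229 of them in 1 HFD cell that was among the 5% with the highest doublet scores, and its log2 ratio of 4.84 was 0.08 without it. Cxcl2, a neutrophil chemokine, went from 2.22 to 0.08 without 1 HFD cell. Tnf had 133 and 60 UMIs, 59 of the ND UMIs in 1 cell, and went from -1.73 to -0.97 without it. Within MHC-II-high cells the ratio of Tnf was -0.01, or -0.64 without 1 HFD cell. Ccl5 was 1.03 with and -2.32 without the Ccr7-bearing cell. Genes of dendritic cell maturation were 10 higher and 1 lower of 11 compared, 6 by at least 2-fold against a background of 3.95%, with a median of 1.03, and Ccl22 (3.55 with and 1.55 without it), Ccr7 (2.06 and 0.73) and Fscn1 (all 57 UMIs) drew on that same cell.

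MHC class II genes were mostly higher in the HFD conventional arm, and immediate-early genes were mostly lower in the arm and in its MHC-II-high cells. Of 10 MHC class II genes compared in the arm, 9 were higher, 1 of them by 2-fold against a background of 3.95%, and 1 was lower, with a median log2 ratio of 0.52 against -0.03 over all genes. In MHC-II-high cells, which were defined by a gene of this list, the counts were 9 and 1 with a median of 0.44, and the lower gene was Ciita, the transactivator of the class II genes (-0.71). Immediate-early genes were 4 higher and 28 lower in the arm, 3 past 2-fold lower against a background of 3.47%, with a median of -0.40. In MHC-II-high cells 13 of 32 were past 2-fold lower against a background of 5.4%, and 2 past 2-fold higher against 6.89%. The median of the list there was -0.90. In MHC-II-low cells the list's sum was higher in HFD, at 19322 and 22908 CPM, and in the whole arm the ratio of Jun was -0.46 with and 0.01 without 1 ND cell and that of Hspa1a -0.43 and -0.05. Ccl3 and Ccl4, inflammatory chemokines, had 93 and 27, and 352 and 115 UMIs in the high cells (-2.47 and -2.32), and the ratios were -1.46 and -1.67 without the cell with the most.

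Most proliferation and interferon-stimulated genes were lower in the HFD conventional arm. Of 19 proliferation genes compared, 3 were higher and 16 lower, 6 by at least 2-fold against a background of 3.47%, with a median log2 ratio of -0.60 (-0.08 when cells with the exclusion genes were kept). A few cells of each library held most of these UMIs. Proliferation UMIs per cell, not scaled to depth, had medians of 9 in ND and 11 in HFD. They reached 380 and 464, both in MHC-II-low cells. Scaled to the UMIs of the cell, the median was lower in HFD than in ND. With cells weighted equally the list's median log2 ratio was -0.48. Ube2c, an anaphase ubiquitin-conjugating enzyme, went from -1.61 to -0.87 without 1 cell. Interferon-stimulated genes were 3 higher and 14 lower, 1 past 2-fold lower, with a median of -0.35. In MHC-II-high cells alone 2 were higher and 11 lower, 5 past 2-fold lower against a background of 5.4%, with a median of -0.82. Their sum was lower in HFD in MHC-II-high cells (4886 and 2661 CPM) and higher in MHC-II-low cells (5947 and 6493), and in monocytes the same genes summed to 4088 and 5855 CPM, higher in HFD. Costimulatory genes were 6 higher and 5 lower (median 0.01) and oxidative phosphorylation genes 12 and 11.

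**Figure D5:**
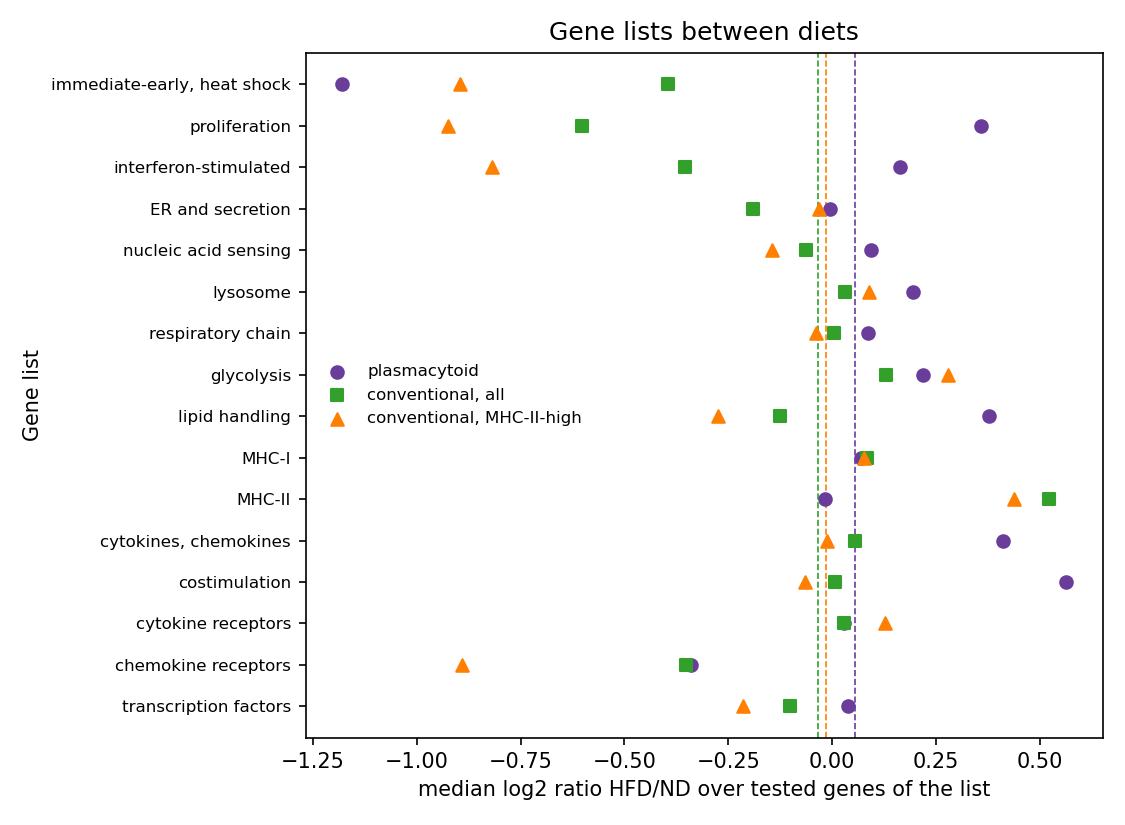
Median log2 ratio of HFD over ND (x axis) for each gene list (y axis) in plasmacytoid, conventional and MHC-II-high conventional cells, with dashed lines at the median over all genes compared in each. The immediate-early list has medians of -1.18, -0.40 and -0.90, and the MHC class II list has medians of -0.02, 0.52 and 0.44.

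The 28 cytokine receptor genes had similar sums in both arms, at 1875 and 1889 CPM in plasmacytoid and 1780 and 1791 in conventional cells, while single receptors differed. Il7r, the interleukin-7 receptor of lymphoid cells, stood at 159 CPM in ND and 175 in HFD plasmacytoid cells and at 20.4 and 22.6 in conventional cells. Ifnar2, a chain of the type I interferon receptor, stood at 537 and 400 in plasmacytoid and 220 and 182 in conventional cells. Csf2ra, the receptor chain for GM-CSF, was higher on the conventional side, at 245 and 281 against 28.5 and 26.0. Of the cytokine receptors compared between diets, 9 were higher and 9 lower in plasmacytoid cells, and 10 and 10 in conventional cells. Lepr, the leptin receptor, had no UMI in either arm.

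Transcription factors of conventional cells were compared in the same way. Irf4, needed by type 2 cells, stood at 85.6 CPM in ND and 83.5 in HFD MHC-II-high cells, at 27.2 and 12.3 in MHC-II-low cells, and at 3.90 and 4.82 in monocytes. Klf4, needed by a subset of type 2 cells and by monocytes, was present in every group, at 662 and 398 in high and 735 and 1071 in low cells. Id2, an inhibitor of E proteins that conventional cells require, stood at 160 and 405 in high cells. Relb, an NF-kB subunit of mature dendritic cells, had 10 UMIs in 9 of 20 ND and 45 UMIs in 16 of 29 HFD high cells.

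Most receptors for neural signals had no UMI in either arm. Of 28 genes listed, 21 had none in plasmacytoid and 17 had none in conventional cells. The list also held the chemokine receptor Ccr2, which gave 331 and 386 of its 692 and 763 CPM in conventional cells and was found in 30 of 33 and 39 of 45 of them. Ramp1 is the subunit that turns Calcrl into the receptor for calcitonin gene-related peptide. It was found in 23 of 24 ND and 37 of 39 HFD plasmacytoid cells, at 411 and 554 CPM. Its partner Calcrl stood at 36.6 and 30.8. Ramp1 was also present in monocytes, at 285 and 297.

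Markers of other cell types were measured in each arm. In plasmacytoid cells B cell genes summed to 1224 and 1259 CPM, most from Ighm, with Pax5 at 0, and T cell genes to 163 and 156, most from Cd28, with Cd3d, Cd3g and Trac at 0. Neutrophil genes summed to 199 and 275, most from Camp, with Ly6g and Cxcr2 at 0, and macrophage genes to 203 and 251, most from Cd68, with Adgre1 and Mrc1 at 0. None of these 4 sums was 2-fold apart between diets, although genes within a list went both ways in some. The median log2 ratio was 1.01 over the 3 T cell genes compared, 2 higher and 1 lower. It was also 1.01 over the 2 macrophage genes compared. In conventional cells monocyte genes summed to 6969 and 7645, most from Lyz2, B cell genes to 388 and 231, macrophage genes to 690 and 495, with Mertk and Cd5l at 0, and neutrophil genes to 198 and 256. Mesenchymal genes summed to 15.9 and 517, most from Dcn in 1 HFD cell, and the part of free RNA in these sums was not tested.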

How the data were processed

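The authors deposited 1 gene-by-barcode matrix of UMI counts per diet, made with Cell Ranger 6.0.1 on mm10 per the submitters' processing notes, over 32285 genes. Whole-number counts were used as deposited and were not scaled to transcript length. Counts were summed over the cells of a population and library and divided by its total UMIs (CPM, per 1000000). Log2 ratios had 0.5 added to each count, and a gene entered with at least 20 UMIs over both libraries. Intervals of ratios are exact conditional and those of shares Clopper-Pearson, at 95%, and cover counting error only. With 1 library per diet no test was run. The cells, lists (36, holding 615 genes, 610 in the matrix) and rules were chosen with earlier results of these data known. Named genes were the list genes, the rule's genes, and the 10 highest and 10 lowest ratios or folds among genes with at least 50 UMIs, for diet ratios in at least 10 cells. B cells had at least 3 Cd79a UMIs, neutrophils at least 5% of UMIs in S100a8 and S100a9, C1q macrophages at least 5 C1q UMIs, and monocytes at least 3 Ly6c2 and 1 Ccr2 UMIs. The automatic Scrublet threshold (scanpy 1.11.5) marked only 9 ND and 23 HFD cells (0.149% and 0.370%), so no cell was removed as a doublet. Scripts used Python 3.11.15, numpy 2.4.6, scipy 1.17.1 and pandas 2.3.3 and were tested on simulated data. A few genes that the naming rule covers are not reported here.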

Additional observations from a re-analysis of the deposited data

How the results depend on the processing

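Of 72 alternative values of shares and counts of genes past 2-fold, 57 moved by less than the counting interval or 1.5 times, and 15 moved further. With a conventional criterion of 1 UMI the share was 0.912% in ND and 0.948% in HFD, and with every cell thinned to 1000 UMIs before the rule the conventional share was 0.218% in ND and 0.389% in HFD. With double-positive cells added to each arm, the plasmacytoid shares were 0.531% in ND and 0.884% in HFD, and the conventional shares 0.68% and 0.980%. MHC-II-high cells alone gave 0.332% and 0.466%. In plasmacytoid cells, 24 genes were past 2-fold higher and 17 lower after thinning, and 27 and 45 with at least 50 UMIs per gene. In conventional cells these counts were 19 and 16, and 57 and 39. Fewer genes were compared in each of these 4 settings. Among the medians of gene lists, 245 alternative values stayed close to the main one, 15 moved and 1 reversed. The median of cytokine and chemokine genes in plasmacytoid cells was -0.61 with at least 50 UMIs per gene, against 0.41. The MHC class II median was 0.38 after thinning in plasmacytoid cells, against -0.02. In conventional cells with Flt3 it was 0.99, against 0.52 in the arm. The immediate-early median in plasmacytoid cells was -0.69 with double-positive cells included. Adding the double-positive cells, taking MHC-II-high cells alone and leaving out the 5% of cells with the highest Scrublet scores were chosen after seeing the data, the last in place of leaving out cells past the automatic Scrublet threshold, an alternative that was not run. No paired analysis was possible because barcodes are not assigned to mice, and no replicate could be left out for the same reason. Each gene's precision was limited by 24 to 45 cells per arm and library.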
